A study of Homo sapiens with 6 samples.

Results

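The DLX genes encode homeodomain transcription factors related to Distal-less of the fruit fly, and 6 genes with a DLX symbol were followed here in A2780 ovarian carcinoma cells with and without CDK12: DLX1, DLX2, DLX3, DLX4 and DLX6, which code for proteins, and the long non-coding RNA DLX2-DT, which starts next to DLX2 and is read in the opposite direction. They were picked by symbol out of the 60483 genes of the counts matrix, and earlier results for the same comparison were known when they were picked. Their differences between the groups are therefore given as a description, without a test. The annotation holds 8 genes with a DLX symbol, and the 2 that are no members, DLX5 and the non-coding DLX6-AS1, are given beside their neighbour DLX6.

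RNA was sequenced from A2780 cells of WT genotype (WT, n = 3) and from A2780 cells of CDK12 KO genotype (KO, n = 3). CDK12 is a kinase that phosphorylates RNA polymerase II. The KO cells were made with a CRISPR/Cas9 plasmid against exon 1 of CDK12, and by the study's methods they are 1 homozygous clone, obtained by editing and selecting a heterozygous clone a second time. The KO libraries are thus all from a single clone, so loss of CDK12 and other differences between this clone and the parental cells cannot be told apart. Neither group was given a drug, and no label ties a library to a separate culture, so the p-values measure the spread between these libraries, which may be technical.

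In vertebrates most DLX genes lie in pairs, with the genes of a pair read towards each other and sharing enhancers in the DNA between them. DLX1, DLX2, DLX5 and DLX6 are known for the making of inhibitory neurons in the forebrain and for the patterning of the pharyngeal arches, from which jaw and face arise. DLX3 is known for its part in skin, hair, teeth and placenta, and DLX4 is expressed in placenta and in several tumours, ovarian carcinoma among them. BMP signals induce several DLX genes, and the MSX factors are related homeodomain proteins that bind similar sites.

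Total counts per library lay between 11098400, in WT replicate 3, and 30899045, in WT replicate 2. edgeR put the biological coefficient of variation at 4.35%. Values are given as CPM, the counts of a gene relative to a library's total after scaling with edgeR's TMM factors, and means are given ± SD over the 3 libraries of a group. A level of 3 counts corresponded to between 0.1 and 0.27 CPM, a floor that covers counting error only. CDK12 RNA, the target of the editing, had 2831, 3759 and 1294 counts in WT against 2432, 2504 and 1818 in KO. Its log2 fold change was -0.23 (edgeR adjusted p = 0.00082, Benjamini-Hochberg). Counts per gene do not tell edited from unedited transcripts. The paper reports that both CDK12 alleles of the clone were edited and that no CDK12 protein was seen in it by western blot. Of 14 markers of ovarian carcinoma and of epithelial or mesenchymal cells, 4 (MUC16, KRT7, ESR1 and CDH2) had at most 3 counts in every library. Of the 5 tested, VIM, a mesenchymal marker, was called down-regulated and none up-regulated. The others tested, KRT8, KRT18, MSLN and EPCAM, had log2 fold changes of 0.56, 0.78, 0.81 and -0.53. The summed level of the 14 was 7150 to 7480 CPM in WT and 1600 to 1620 CPM in KO, most of it VIM. PAX8, a common marker of ovarian carcinoma, stood at 0.2 CPM in WT and 0.053 CPM in KO, whereas the keratin KRT18 stood at 59.9 CPM in WT against 103 CPM in KO and vimentin (VIM) stood at 7230 CPM in WT against 1490 CPM in KO. Of 14 markers of blood, vessel, liver, fibroblast and nerve cells, 7, among them PTPRC, CD3E, PECAM1, MAP2, DCX and GFAP, had at most 3 counts in every library. Of the 4 tested, VWF was called up-regulated and COL1A1 down-regulated. VWF was low, at 0.192 CPM in WT and 0.703 CPM in KO. It was not tested once all libraries were thinned to the smallest total. The summed level of all 14 was 613 to 662 CPM in WT and 122 to 143 CPM in KO, of which the collagen gene COL1A1 made up 629 CPM and 122 CPM on average. The part of these markers in the DLX results was not tested.

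In CPM, the KO libraries held little DLX1 RNA and no counted DLX2 RNA. They held more DLX3 and DLX6 RNA than the WT libraries, with a smaller difference for DLX4. All 6 members passed the filter on low counts. The log2 fold change was below -1 for 3 of the 6 (DLX1, DLX2 and DLX2-DT), against 7.73% of the 16198 genes tested, and above 1 for 2 of the 6 (DLX3 and DLX6), against 8.31%. In 3 members every KO value lay below every WT value, which held for 33.5% of all tested genes, and in the other 3 every KO value lay above every WT value, which held for 32.8%. The members were chosen with these differences known, so their counts are not read against these shares, and the counts above 1 and above all WT values were added after the data were seen. The direction followed the chromosomal pairs: DLX1, DLX2 and DLX2-DT on chromosome 2 were lower, DLX3 and DLX4 on chromosome 17 were higher, and so was DLX6 on chromosome 7.

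**Figure D1:**
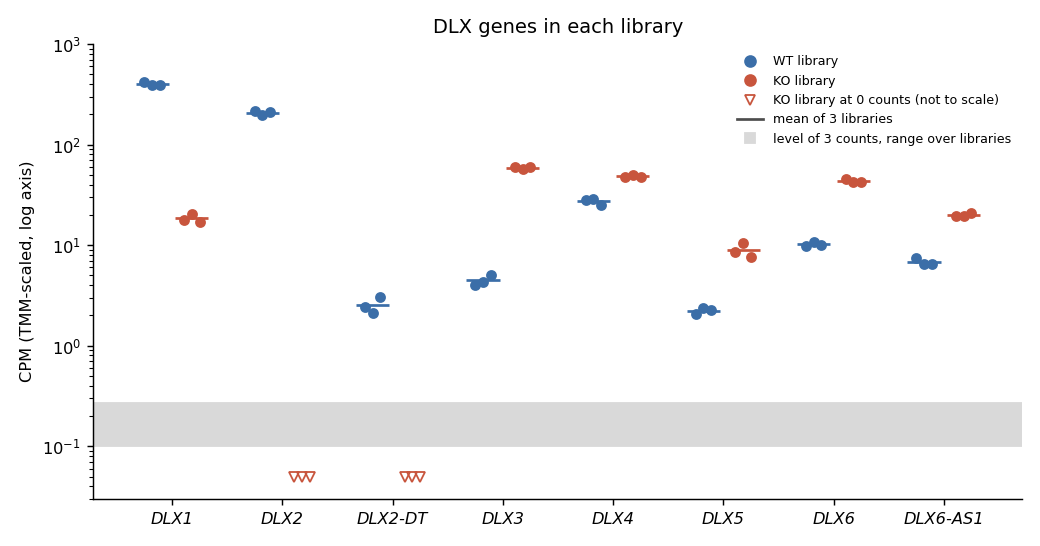
CPM of each DLX gene (log axis) in the 3 WT libraries (blue) and the 3 KO libraries (red), with the mean as a line; open triangles mark libraries with 0 counts, and the grey band is the level of 3 counts over the libraries. DLX1, DLX2 and DLX2-DT lie lower in KO, with DLX2 and DLX2-DT at 0 counts, and the other 5 genes lie higher in KO.

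DLX1 (ENSG00000144355) occupies bases 172084740 to 172089677 of chromosome 2 (plus strand) in GRCh38 and was the most abundant DLX gene of WT cells. It had 11568, 11696 and 4392 counts across the WT libraries, or 422, 390 and 395 CPM, and 439, 553 and 305 counts across the KO libraries, or 17.8, 20.5 and 17.1 CPM. The KO libraries all lay far below the WT libraries, and within a group the libraries were close to each other. The mean was 402 ± 17 CPM in WT and 18.5 ± 1.79 CPM in KO (n = 3), 21.8-fold lower, a log2 fold change of -4.43 (SE 0.0633). DLX1 RNA thus remained well above the floor in every KO library.

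DLX2 (ENSG00000115844), the partner of DLX1, occupies bases 172099438 to 172102900 of chromosome 2 (minus strand). It had 5864, 5945 and 2344 counts across the WT libraries, or 214, 198 and 211 CPM, and 0 counts in each KO library. No DLX2 read was thus counted in any KO library, which allows a level of up to 0.122, 0.111 and 0.168 CPM in KO replicates 1, 2 and 3. Against the highest of these floors the WT mean of 208 ± 8.26 CPM (n = 3) was at least 1233-fold higher. The fitted log2 fold change of a gene at 0 depends on the prior count and is not used as a size.

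DLX2-DT (ENSG00000236651) is a long non-coding RNA. It occupies bases 172103006 to 172109982 of chromosome 2 (plus strand) and is transcribed away from DLX2, with 105 bases between the annotated genes. It had 67, 64 and 34 counts across the WT libraries, or 2.44, 2.13 and 3.06 CPM, and 0 counts in each KO library. Every WT library was above its floor and no KO library held a count, as for DLX2, but at a much lower level. The WT mean of 2.55 ± 0.471 CPM (n = 3) was at least 15.1-fold above the highest floor of the KO libraries. DLX2 and DLX2-DT share no exon bases, so neither gene's reads can fall in an exon of the other.

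The starts of DLX2 and DLX2-DT share the stretch shown first below, which is why it is printed: the 250 bases before the start of DLX2, on the minus strand at chr2:172102901-172103150, of which the first 145 lie in exon 1 of DLX2-DT. A stretch of DLX1 at chr2:172085397-172085426 (plus strand) with the first of its CCAAT boxes is shown for comparison. Capitals mark a CCAAT box (CCAAT, or ATTGG on the other strand) or an E-box (CACGTG), found by a search of both strands for motifs picked after the sequences were seen.
DLX2: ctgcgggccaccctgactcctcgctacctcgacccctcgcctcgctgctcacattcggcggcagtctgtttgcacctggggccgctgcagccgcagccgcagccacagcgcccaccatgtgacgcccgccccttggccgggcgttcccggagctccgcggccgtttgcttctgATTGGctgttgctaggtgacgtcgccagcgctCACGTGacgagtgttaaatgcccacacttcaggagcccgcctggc
DLX1: cggaCCAATccccagtgattatgcaagaca

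Both sequences are from RefSeq promoter windows of GRCh38.p14, which run from 250 bases before to 50 bases after a gene's start as that table gives it. For DLX2 and DLX6 this is the start of the GENCODE gene. For DLX1 it is base 172085507, 767 bases inside the GENCODE gene, so the printed stretch of DLX1 lies within the gene as placed above. Of the members, 3 were found in that table, DLX1, DLX2 and DLX6, and no window was taken for DLX2-DT, DLX3 and DLX4. The DLX2 window holds 1 CCAAT box, whose bases lie from -77 to -73 relative to the start, and 1 E-box from -45 to -40, both between the starts of DLX2 and DLX2-DT. The DLX1 window holds 2 CCAAT boxes. A CCAAT box is present in 34.6% of the 35116 windows of the table and the E-box in 7.26%. The DLX1 and DLX2 windows hold 23 and 30 CpG sites, against a median of 14 over all windows, and 59% and 67.7% of their bases are G or C, against a median of 58.7%. The windows of DLX1 and DLX2 contained neither TATAAA, present in 11.5% of windows, nor TAATTG, a homeodomain core present in 7.38%. A match of letters is a description and not a measured site, and methylation and factor binding were not measured.

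DLX3 (ENSG00000064195) occupies bases 49990005 to 49995224 of chromosome 17 (minus strand). It had 110, 130 and 56 counts across the WT libraries, or 4.01, 4.33 and 5.04 CPM, and 1470, 1559 and 1055 counts across the KO libraries, or 59.8, 57.8 and 59.2 CPM. The KO libraries agreed closely with one another and lay far above all WT libraries. The level was 13.2-fold higher in KO, at 58.9 ± 0.983 CPM against 4.46 ± 0.525 CPM (n = 3), a log2 fold change of 3.76 (SE 0.0813). This was the largest difference towards KO among the members.

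DLX4 (ENSG00000108813), the partner of DLX3, occupies bases 49968588 to 49974959 of chromosome 17 (plus strand). It had 773, 869 and 278 counts across the WT libraries, or 28.2, 29.0 and 25 CPM, and 1176, 1337 and 855 counts across the KO libraries, or 47.8, 49.6 and 48.0 CPM. The groups did not overlap, but the fold between them was the smallest of the 6 members. The mean was 27.4 ± 2.1 CPM in WT and 48.5 ± 0.994 CPM in KO (n = 3), 1.77-fold higher, and its log2 fold change of 0.81 (SE 0.0621) lay under the study's fold threshold of 1.

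DLX6 (ENSG00000006377) occupies bases 97005553 to 97011040 of chromosome 7 (plus strand). It had 268, 320 and 112 counts across the WT libraries, or 9.77, 10.7 and 10.1 CPM, and 1113, 1142 and 757 counts across the KO libraries, or 45.2, 42.4 and 42.5 CPM. The libraries of each group were close together and the groups were well apart. The level was 4.26-fold higher, from 10.2 ± 0.458 CPM to 43.4 ± 1.63 CPM (n = 3), a log2 fold change of 2.09 (SE 0.0722).

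The DLX genes beside DLX6 that are no members, DLX5 and DLX6-AS1, were higher in KO as well. DLX5 (ENSG00000105880), its partner, rose from 2.08, 2.37 and 2.25 CPM in the WT libraries to 8.62, 10.5 and 7.63 CPM in the KO libraries, a log2 fold change of 2.02 (SE 0.143, edgeR adjusted p = 6.08e-14). DLX6-AS1 (ENSG00000231764), a non-coding RNA read from the opposite strand through DLX6, rose from 7.4, 6.5 and 6.57 CPM to 19.6, 19.6 and 20.8 CPM, a log2 fold change of 1.54 (SE 0.0889, edgeR adjusted p = 2.93e-16). DLX6 and DLX6-AS1 share 759 exon bases. The library kit keeps strand, but the strand setting of the counting is not given in the sources used here, so reads from the shared bases may not be told apart. DLX5 lies 9.36 kb from DLX6 and shares no exon bases with it.

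The 250 bases before the start of DLX6, at chr7:97005303-97005552 on the plus strand, are shown because this member moved in the opposite direction to DLX1 and DLX2. Capitals mark CCAAT boxes on either strand and a cAMP response element (TGACGTCA).
DLX6: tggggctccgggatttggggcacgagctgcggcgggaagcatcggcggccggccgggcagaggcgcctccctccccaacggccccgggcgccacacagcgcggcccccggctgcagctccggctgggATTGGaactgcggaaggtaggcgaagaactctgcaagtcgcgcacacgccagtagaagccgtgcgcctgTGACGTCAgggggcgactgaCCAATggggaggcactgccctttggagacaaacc

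The DLX6 window held 2 CCAAT boxes and 30 CpG sites, the same number of CpG sites as that of DLX2, and 67% of its bases are G or C. Its cAMP response element, searched as the exact letters TGACGTCA, is found in 1.85% of all windows and was present in the window of neither DLX1 nor DLX2. The printed DLX2 stretch holds TGACGTCG, which differs from it in the last letter only. The CCAAT box was thus present in the windows of members lower in KO and of the one higher in KO. The window of DLX6-AS1, in contrast, held 3 CpG sites, no CCAAT box and 1 TAATTG.

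Compared per kilobase of exon, so that levels of different genes can be set side by side, the order of the DLX genes changed between the groups. The length counts every annotated exon of a gene, not the transcripts expressed here, and some ranks depend on it. In CPM, DLX4 (48.5) stood above DLX6 (43.4) in KO, and DLX6-AS1 (6.82) above DLX3 (4.46) in WT. DLX1 was highest in WT and DLX3 in KO by CPM as well. In WT cells DLX1 had 113 ± 4.77 CPM per kilobase and DLX2 69.9 ± 2.78 CPM per kilobase (n = 3), followed at a distance by DLX4 with 6.58 ± 0.505. DLX6, DLX2-DT, DLX3, DLX5 and DLX6-AS1 followed in this order, and of all neighbours in the order only the ranges of DLX6 (2.84 to 3.1 CPM per kilobase) and DLX2-DT (2.25 to 3.22) overlapped. In KO cells DLX3 was first with 21.7 ± 0.362 CPM per kilobase, before DLX6 with 12.6 ± 0.472, DLX4 with 11.7 ± 0.239 and DLX1 with 5.18 ± 0.502 (n = 3). DLX1 and DLX5, with 5.12 ± 0.847 CPM per kilobase, overlapped in KO, and DLX2 and DLX2-DT were last with 0 counts.

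The decrease in DLX1 and DLX2 was larger in CPM than the increase in the other genes. Summed over the 6 protein-coding genes, DLX5 included, the level was 680, 635 and 648 CPM in the WT libraries and 179, 181 and 174 CPM in the KO libraries. The summed DLX level in CPM was thus 3.67-fold lower in KO. CPM is relative to a library's total and is not an amount per cell. The paper reports a higher DNA content and chromosome number in the KO clone than in the parental cells. DLX1 and DLX2 together went from 610 ± 23.9 to 18.5 ± 1.79 CPM, DLX3 and DLX4 together from 31.8 ± 1.66 to 107 ± 0.186 CPM, and DLX5 and DLX6 together from 12.4 ± 0.599 to 52.3 ± 1.94 CPM (n = 3). Per kilobase, DLX1 made up 57.8% and DLX2 35.8% of the protein-coding DLX level in WT cells, and in KO cells DLX1 made up 9.19%. DLX3 made up 0.844% in WT and 38.6% in KO, DLX6 1.52% and 22.4%, and DLX4 3.38% and 20.7%.

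**Figure D2:**
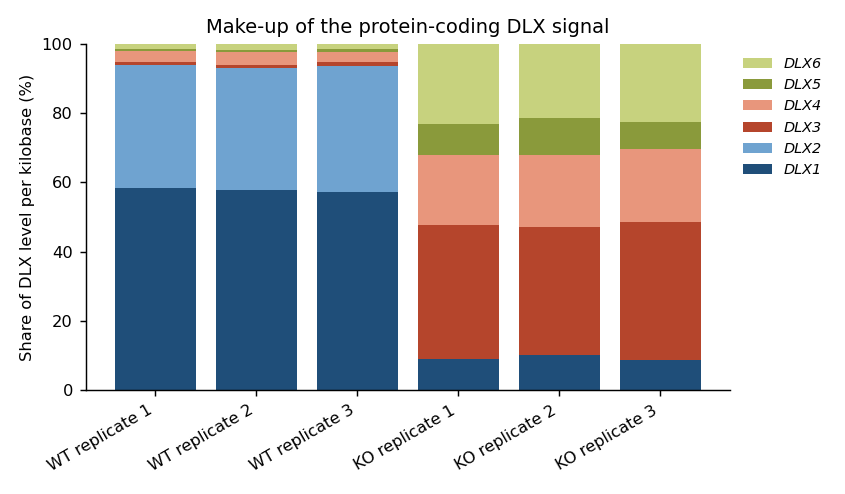
Share of each protein-coding DLX gene in the summed CPM per kilobase of exon (%, y axis) in each of the 6 libraries (x axis). DLX1 and DLX2 fill most of the 3 WT bars, whereas DLX3, DLX6 and DLX4 fill most of the 3 KO bars, and the bars within a group are alike.

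Within the chromosomal pairs the balance between partners differed in how it moved. Per kilobase, DLX1 stood at 1.64, 1.64 and 1.56 times DLX2 in the WT libraries. DLX3 stood at 0.218, 0.229 and 0.309 times DLX4 in the WT libraries and at 1.92, 1.79 and 1.89 times DLX4 in the KO libraries, so the lesser partner became the greater. DLX6 stood at 2.38, 2.28 and 2.27 times DLX5 in the WT libraries and at 2.66, 2.04 and 2.82 times DLX5 in the KO libraries, and these ranges overlapped. The genes of each pair are read towards each other, with 9.76 kb between DLX1 and DLX2, 15 kb between DLX4 and DLX3 and 9.36 kb between DLX6 and DLX5.

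The tested genes whose start lies within 1 Mb of the DLX loci were compared to see whether the change reached beyond the DLX genes. Around DLX1 and DLX2, 4 of 15 genes were called down-regulated and none up-regulated at the study's thresholds, an adjusted p under 0.05 with a log2 fold change below -1 or above 1. Over all 16198 tested genes 7.73% were called down-regulated and 8.30% up-regulated. The 4 genes, METAP1D, CYBRD1, DYNC1I2 and SLC25A12, all lie on the DLX1 side of the pair. METAP1D, a mitochondrial methionine aminopeptidase, starts 84.8 kb from the start of DLX1 on the same strand. It ends at base 172082430, shortly before the start of DLX1 at base 172084740. METAP1D fell from 140 ± 12.2 to 29.9 ± 0.164 CPM (n = 3), a log2 fold change of -2.24 (SE 0.0601, edgeR adjusted p = 1.65e-25). CYBRD1, an iron reductase at 562 kb, had a log2 fold change of -2.08 (edgeR adjusted p = 2.02e-24).

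The other near genes of the DLX1 and DLX2 locus moved less. SLC25A12, a mitochondrial carrier of aspartate and glutamate, had a log2 fold change of -1.09 (SE 0.0562, edgeR adjusted p = 1.44e-17). HAT1, a histone acetyltransferase, had -0.91 (edgeR adjusted p = 1.27e-17), short of the fold threshold. On the DLX2 side the nearest tested protein-coding genes were ITGA6, an integrin, PDK1, a kinase of pyruvate dehydrogenase, and RAPGEF4, with log2 fold changes of -0.47, -0.51 and 0.63 (edgeR adjusted p = 2.36e-08, 6.12e-10 and 0.00687), none past the fold threshold. None of the 15 genes was as far below WT as DLX1.

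Around DLX3 and DLX4, 6 of 38 tested genes were called down-regulated and 1 up-regulated, NGFR, against 7.73% and 8.30% of all tested genes. By the adjusted p alone 15 of the 38 were lower and 7 higher in KO, beside 5188 lower and 5165 higher of all 16198 tested genes. Of the nearest protein-coding genes, KAT7, another histone acetyltransferase, had a log2 fold change of 0.29 (SE 0.052, edgeR adjusted p = 1.1e-05), and SLC35B1, FAM117A and the integrin ITGA3 had 0.12, 0.02 and 0.14 (edgeR adjusted p = 0.0533, 0.81 and 0.163). PDK2 had -0.28 (edgeR adjusted p = 1.24e-04). SAMD14, at 135 kb from DLX3, was called down-regulated with -1.91 (SE 0.1, edgeR adjusted p = 1.93e-17). Larger falls lay further out. COL1A1, at 206 kb from DLX3, fell from 629 to 122 CPM (log2 fold change -2.37, edgeR adjusted p = 2.98e-27). IGF2BP1, at 971 kb from DLX4, fell from 490 to 4.26 CPM (log2 fold change -6.84, edgeR adjusted p = 9.62e-36). The non-coding ENSG00000250838 and the pseudogene ENSG00000251550, also called down-regulated, overlap IGF2BP1, so these calls are not from separate places. COL1A1, IGF2BP1 and the genes overlapping it were named here after their values were seen. NGFR, with 0.151 ± 0.131 CPM in WT and 0.585 ± 0.0932 CPM in KO (n = 3), was no longer called after thinning all libraries to the smallest total, and it was named after its values were seen.

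Around DLX5 and DLX6, none of the 6 tested genes was called in either direction. SLC25A13, SEM1, SDHAF3 and ASNS, the nearest tested protein-coding genes, had log2 fold changes of -0.08, 0.16, 0.25 and -0.01 (edgeR adjusted p = 0.139, 0.00429, 3.35e-04 and 0.935), against 2.09 for DLX6. The median log2 fold change was -0.47 around DLX1 and DLX2, -0.08 around DLX3 and DLX4 and -0.04 around DLX5 and DLX6, beside 0 over all tested genes.

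**Figure D3:**
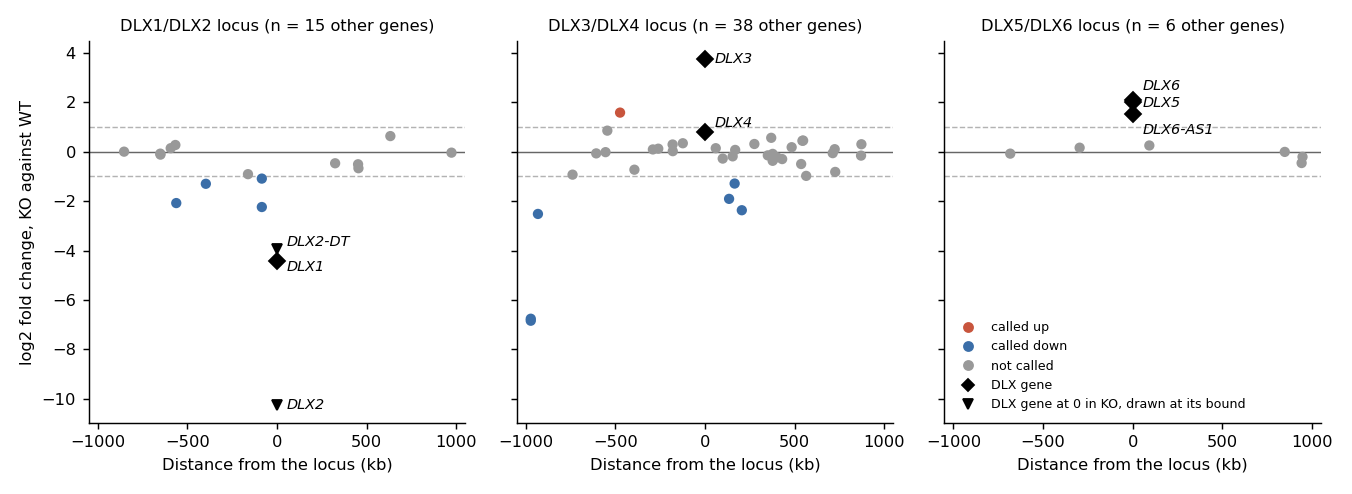
Log2 fold change of KO against WT (y axis) of tested genes within 1 Mb of each DLX locus, by distance of their start from the locus in kb (x axis), with DLX genes in black at 0 kb and genes at 0 in KO drawn at their bound. Called genes are blue (down) or red (up), and dashed lines mark the fold threshold; 4 called genes lie on one side of DLX1 and DLX2, and no gene beside DLX5 and DLX6 was called.

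Genes that act before, with or after the DLX factors in development were taken from 5 lists. Of 28 genes of the forebrain interneuron programme, 16 had at most 3 counts in every library, among them GSX1, GSX2, SP8, SP9 and GAD2, which help define these neurons and their progenitors, and 8 were tested. Of these 8, 4 were called down-regulated and none up-regulated, against 7.73% and 8.30% of all tested genes. The median log2 fold change of the 8 was -1.27, against 0 over all tested genes. With at least 10 counts asked for in every library, ISL1, ERBB4 and ROBO2 could not be tested and 1 down-regulated call was left.

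ROBO2, a receptor for the guidance cue SLIT, had 118, 129 and 41 counts in WT against 1, 0 and 0 in KO, at least 24.3-fold lower (edgeR adjusted p = 4.3e-17). ERBB4, a receptor tyrosine kinase, had 63, 79 and 25 counts in WT against 1, 0 and 0 in KO, at least 14.2-fold lower (edgeR adjusted p = 3.79e-14). ISL1, a LIM homeodomain factor, fell 71.4-fold, from 14.5 ± 0.703 to 0.203 ± 0.149 CPM (n = 3; edgeR adjusted p = 1.1e-22). Its KO libraries held 9, 2 and 3 counts, and without KO replicate 1 the fall is known only as a bound, at least 86-fold. LHX6, a LIM homeodomain factor that acts downstream of DLX genes in interneurons, stood at 15.6 ± 1.43 CPM in WT against 12.7 ± 0.881 CPM in KO, and its log2 fold change, -0.28, did not reach the fold threshold.

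In the pharyngeal arch and skeletal programme the calls were in the other direction. Of 33 genes, 19 were tested, of which 8 were called up-regulated and none down-regulated (42.1% up-regulated, against 8.30% of all tested genes). The median log2 fold change was 0.33, against 0 over all tested genes. With at least 10 counts asked for in every library, HAND2, SP7, MSX1, POU3F3 and NKX3-2 could not be tested and 3 up-regulated calls were left. No gene of this list was called down-regulated, but ALPL and EDNRA lay just short of the fold threshold with log2 fold changes of -0.99 and -0.97, and up to 3 were called down-regulated without KO replicate 1, 2 without KO replicate 2 or WT replicate 2, and 1 without KO replicate 3 or WT replicate 1.

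The called genes of this list included homeodomain relatives of the DLX genes. MSX1 had 4, 6 and 8 counts in WT against 328, 345 and 177 in KO, 33.8-fold higher in CPM, or 69.5-fold without WT replicate 3 (log2 fold change 5.50, standard error 0.231, edgeR adjusted p = 5.35e-20). POU3F3, a POU domain factor, had 0 counts in each WT library against 26, 29 and 27 in KO, at least 4.51-fold higher (edgeR adjusted p = 2.24e-10). HAND2, a basic helix-loop-helix factor that DLX5 and DLX6 are known to induce in the arches, rose 4.82-fold, from 0.881 ± 0.163 to 4.25 ± 0.569 CPM (n = 3; edgeR adjusted p = 7.39e-12). Among the other called genes were MSX2, TFAP2A, NKX3-2 and SP7. SP7 was low, with 4, 12 and 0 counts in WT against 16, 19 and 12 in KO. After thinning all libraries to the smallest total, SP7 was no longer tested and MSX2 was not called (log2 fold change 0.77). EDN1 and RUNX2, the ligand that starts the arch programme and the master factor of bone, had at most 3 counts in every library, and GSC and BARX1 had log2 fold changes near 0 (edgeR adjusted p = 0.946 and 0.984).

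The BMP pathway, which induces DLX genes, had most of its members in these cells: 29 of 36 were tested, 1 was called up-regulated (3.45%, against 8.30% of all tested genes) and 3 down-regulated (10.3%, against 7.73%), and the median log2 fold change was -0.09. By role, the receptors ACVR1, ACVR2A, ACVR2B, BMPR1A and BMPR2 had log2 fold changes of 0.17, 0.49, -0.67, 0.43 and 0.34. The signal transducers SMAD1, SMAD5, SMAD9 and SMAD4 had 0.48, 0.33, 0.03 and -0.26, and none of these 9 genes passed the fold threshold. Of the ligands, BMP5 had 191, 213 and 82 counts in WT against 0, 0 and 1 in KO, at least 42.5-fold lower (edgeR adjusted p = 5.39e-20), while BMP7 stood at 47.7 ± 2.29 CPM in WT against 42.2 ± 1.18 CPM in KO (n = 3). Of the ID genes, which BMP signals switch on, ID4 was at least 109-fold lower (505, 574 and 197 counts in WT and 2, 0 and 0 in KO, edgeR adjusted p = 7.52e-25), whereas ID1, ID2 and ID3 had log2 fold changes of 0.27, 0.23 and -0.09. The antagonist FST was at least 6.09-fold lower (edgeR adjusted p = 3.36e-09), and ZNF423, a zinc finger partner of the SMAD proteins, rose 2.78-fold (log2 fold change 1.48, edgeR adjusted p = 5.77e-20). Without KO replicate 2, 5 genes of the pathway were called down-regulated.

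Skin, enamel and placenta genes, among which DLX3 and DLX4 act, were mostly near or at 0: 16 of 26 had at most 3 counts in every library, including TP63, KRT5, KRT14 and GCM1, and 7 were tested. Of these, GRHL3, KLF4 and GATA3 were called up-regulated and PPARG down-regulated (42.9% and 14.3%, against 8.30% and 7.73% of all tested genes), and the median log2 fold change of the 7 was -0.20. With at least 10 counts asked for in every library, GRHL3 and GATA3 could not be tested and 1 up-regulated call was left. KLF4, a zinc finger factor of the skin barrier, rose 4.87-fold, from 1.03 ± 0.136 to 5.01 ± 0.279 CPM (n = 3; edgeR adjusted p = 4.77e-13). GRHL3, another factor of the skin barrier, had 4, 0 and 0 counts in WT against 27, 26 and 27 in KO, and GATA3 1, 0 and 0 against 13, 13 and 12 (edgeR adjusted p = 1.88e-08 and 6.08e-07), both at a low level. PPARG, a nuclear receptor, fell 2.43-fold (log2 fold change -1.30, edgeR adjusted p = 2.89e-09).

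The last list, called the partners further below, held proteins that bind DLX factors or share their DNA sites. It also held general cofactors and the secreted signals SHH, FGF8 and WNT3A, which do neither. Of 27 genes 26 were tested, 5 of which were called up-regulated (19.2%, against 8.30% of all tested genes) and 3 down-regulated (11.5%, against 7.73%), with a median log2 fold change of -0.16. MSX1 and MSX2 are part of this list too. PKNOX2 and MEIS3, TALE homeodomain cofactors, fell 5.14-fold and 2.48-fold (log2 fold changes -2.33 and -1.29, edgeR adjusted p = 2.36e-11 and 8.38e-14). GRIP1, a scaffold protein reported to bind DLX2, rose from 4, 3 and 0 counts in WT to 20, 16 and 11 counts in KO (edgeR adjusted p = 1.16e-05). MAGED1, which binds several DLX proteins, stood at 265 ± 9.16 CPM in WT against 295 ± 8.21 CPM in KO (n = 3), a log2 fold change of 0.16. After thinning all libraries to the smallest total, 2 of the 5 up-regulated calls of this list were left: SHH and GRIP1 no longer passed the filter on low counts, and MSX2, with a log2 fold change of 1.02 in all libraries, stood at 0.77. The call of MSX2 was also lost without WT replicate 1 (0.98). The call of SHH (log2 fold change 1.03) was lost with DESeq2, with limma-voom and without KO replicate 1 or 2 or WT replicate 2 or 3, and that of MAGEL2 (-1.10) with limma-voom and without WT replicate 2.

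**Figure D4:**
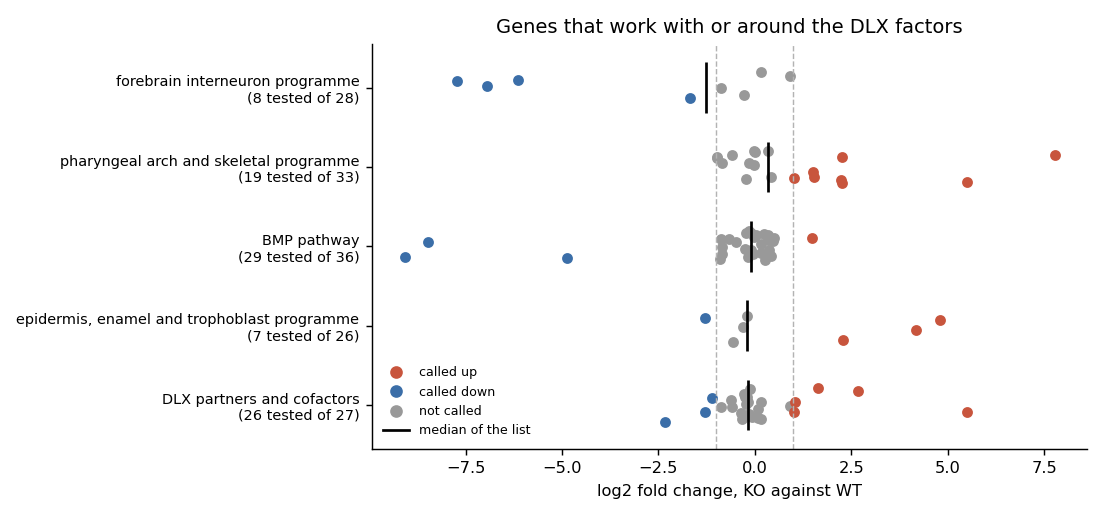
Log2 fold change of KO against WT (x axis) of the tested genes of 5 lists (y axis), with genes called up-regulated in red, down-regulated in blue and the others in grey, and the median of each list as a black line; dashed lines mark the fold threshold. The called genes of the forebrain interneuron programme lie on the lower side and those of the pharyngeal arch and skeletal programme on the upper side.

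The genes with the most similar pattern over the 6 libraries were found by the root mean square difference of centred log2 CPM, over 16197 other tested genes. For DLX1 these were ANXA2, GJC1 and ZNF675, with differences of 0.0831, 0.111 and 0.116. ANXA2, an annexin, fell from 134 ± 1.69 to 6.51 ± 0.392 CPM (n = 3). For DLX2 they were OLFM3, TM4SF1 and PEG10, at 0.238, 0.296 and 0.462, of which TM4SF1 fell from 754 ± 42.5 to 0.291 ± 0.119 CPM (n = 3). DLX2 had 0 counts in KO, so the 2 counts added on the log scale set its KO level and largely these differences. SESN3, KRT8P38 and MIR3681HG were nearest to DLX3, at 0.0816, 0.101 and 0.142. KRT8P38 and MIR3681HG stood at 0 and 0.0644 CPM in WT, so the added 2 counts of the log scale largely set their positions. MMAA, EFNB3 and ZNF852 were nearest to DLX4, at 0.0313, 0.0327 and 0.0413, and TAGLN2, KAT2B and FBXO32 to DLX6, at 0.0587, 0.0642 and 0.0726. With 2 groups of 3 libraries, such a likeness reflects mainly the size of the difference between the groups.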

How the data were processed

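RNA-seq of 3 WT and 3 CDK12 KO libraries of A2780 cells (stranded, single-ended 75-base reads) was used. The authors deposited raw counts per Ensembl gene, made with fastqc, STAR on GRCh38 and HTSeq-Count and not normalized; versions, annotation release, strand setting and multi-mapped reads are not given in the sources used here. Identifiers without version were matched to GENCODE release 44 (56321 of 60483, 93.1%), which gave positions and exon lengths.

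Genes were kept with filterByExpr (minimum count 10, minimum total 15), scaled with TMM and tested two-sided with edgeR 4.0.16 in R 4.3.3 (quasi-likelihood, Benjamini-Hochberg over 16198 genes). Calls used the study's thresholds. Where no library of a group exceeded 3 counts, the fold was taken against the group's highest floor of 3 counts and is a bound. Log2 CPM used a prior count of 2. The members, lists and tests were chosen with earlier results of these data known; the lists came from textbook knowledge. The genes named are the DLX genes, the 3 nearest tested protein-coding genes on each side of a locus, up to 4 called genes per list and direction with the largest change, and the 3 most similar genes per coding member; some genes that this rule names are not reported here, and others beside them are named for their role or were chosen after their values were seen. Alternatives were limma-voom (limma 3.58.1), DESeq2 1.42.0, RLE and upper-quartile scaling, no filter beyond 1 count, 10 counts in every library, thinning to 11098400 counts, leaving out each library (folds in CPM without a library were added after the data were seen) and the adjusted p alone. Other steps used Python 3.11.15, pandas 2.3.3 and matplotlib 3.10.9.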

Additional observations from a re-analysis of the deposited data

How the results depend on the processing

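The direction of all 6 DLX members was the same under every alternative that gave a value, with log2 fold changes of -4.53 to -4.39 for DLX1, 3.69 to 3.81 for DLX3, 0.76 to 0.9 for DLX4 and 2.04 to 2.16 for DLX6; those of DLX2 (-15.35 to -13.2) and DLX2-DT (-8.87 to -6.78) moved with the tool because the KO libraries are at 0. With at least 10 counts in every library, genes at 0 or at low counts in a group cannot be tested by construction, and 1 member remained below -1. Over all genes 568 were then called up-regulated and 684 down-regulated. The numbers tested under this filter are not given here, so these counts are not set against a share. The counts fell to 0 up-regulated genes near DLX loci, 3 up-regulated arch and skeletal genes and 1 up-regulated skin, enamel and placenta gene. They fell to 2 up-regulated partners, 1 down-regulated interneuron gene and 0 down-regulated BMP pathway genes. With the adjusted p alone, calls numbered 5165 up and 5188 down, of which 10 and 24 near DLX loci, 11 and 12 in the BMP pathway, 8 and 15 among partners, 2 up-regulated interneuron genes, 5 down-regulated arch and skeletal genes and 3 down-regulated skin, enamel and placenta genes. After thinning, 0 genes near DLX loci and 2 partners were up-regulated and 2 arch and skeletal genes were down-regulated; SHH and GRIP1 were then too low to test, DLX2 moved to -14.17 and DLX2-DT to -7.83, and the cause of the other changes was not tested. The last count was 1 with DESeq2, 1 with limma-voom and 3 with no filter, under which 1 interneuron gene was up-regulated. With each library left out in turn, down-regulated arch and skeletal genes numbered 0 to 3, down-regulated BMP pathway genes 3 to 5 and up-regulated genes near DLX loci 1 to 2, the last being 2 without KO replicate 2 or WT replicate 2. The sign of 2 neighbours near 0 turned: with a library left out FAM117A ranged from -0.03 (without KO replicate 1 or WT replicate 2) to 0.06 and ASNS from -0.06 to 0.04, and ASNS was at 0.02 with 10 counts in every library or upper-quartile scaling, 0.01 after thinning, 0.00 without KO replicate 1 and 0.04 without KO replicate 2 or WT replicate 1. No paired analysis was possible because the labels give the libraries no number shared between the groups.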
